A study of Homo sapiens with 9 samples.

Results

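The rows described here were the microRNA rows of the count tables, that is, the gene symbols that begin with MIR and a digit or with MIRLET7. Rows were chosen by their counts: a row was taken when its highest-count transcript summed to 100 or more over the 9 samples, which left 216 of the 1658 symbols of this form, among 25680 symbols in all. Of the 216, 202 were rows of a single hairpin and 14 were rows named as a host gene by a symbol ending in HG. A host gene is a longer transcript from which microRNAs are cut. The threshold used the counts themselves, so the level of a row is a description and carries no test. The remaining symbols of this form were at 0 counts in 888 cases and at 1 to 99 counts in 554.

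RNA-seq was performed on SKNO-1, a cell line from human acute myeloid leukaemia with the AML1-ETO (RUNX1-RUNX1T1) fusion. The 9 samples formed 3 groups of 3: a control labelled EV, and 2 groups labelled SH2 and SH3 after the shRNAs that targeted ASXL2. The labels do not spell out EV, and the study speaks of a control shRNA and of biological triplicates. In every group the samples were numbered 1, 13 and 25, and what the numbers stand for is not given in the sources used here. All samples came from a single cell line, and the vectors that carried the shRNAs are not described.

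A microRNA gene is transcribed as a long primary transcript. In the nucleus DROSHA and DGCR8 cut out a hairpin, XPO5 exports it, and DICER1 trims it to a short duplex from which an Argonaute protein keeps a single strand. The kept strand pairs with messenger RNAs through its seed, bases 2 to 8. Many hairpins lie within introns or exons of other genes. The libraries here were made from poly(A) RNA without strand information, so a count on a hairpin row is a count of long RNA across that locus, and it does not measure the mature microRNA. Reads of the gene that holds the hairpin and reads of the primary transcript cannot be told apart.

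Mature sequences are given for the rows on which the results turn, to show which short RNA each locus encodes. RefSeq (GRCh38.p14) had a mature sequence for 181 of the 202 hairpin rows, 286 sequences with 270 different seeds. Each is written 5′ to 3′ with the seed in capitals. The first set holds hairpin rows that had the smallest p-values between groups.
miR-30a-5p: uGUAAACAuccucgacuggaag
miR-30a-3p: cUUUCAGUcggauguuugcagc
miR-590-5p: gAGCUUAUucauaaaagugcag
miR-590-3p: uAAUUUUAuguauaagcuagu
miR-6501-5p: aGUUGCCAgggcugccuuuggu
miR-6501-3p: cCAGAGCAgccugcgguaacagu
miR-6511b-5p: cUGCAGGCagaaguggggcugaca
miR-6511b-3p: cCUCACCAccccuucugccugca

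The second set belongs to the 4 distinct hairpin rows with the most counts, and their letters also occur in abundant messenger RNAs.
miR-4426: gAAGAUGGacguacuuu
miR-3654: gACUGGACaagcugaggaa
miR-1244: aAGUAGUUgguuuguaugagaugguu
miR-1282: uCGUUUGCcuuuuucugcuu
Read as DNA, the whole of miR-4426 was found in 7 of 10 annotated transcripts of RPS27A, the whole of miR-3654 in 2 of 4 transcripts of EEF1G, and the whole of miR-1244 in 4 of 12 transcripts of PTMA. The reverse complement of miR-1282 was found in 9 of 17 transcripts of SERF2, since that hairpin lies on the strand opposite to SERF2.

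The third set holds microRNAs known from blood cells, and pairs of rows whose mature sequences share a seed. In all, 11 seeds were shared by mature sequences of different names.
miR-223-3p: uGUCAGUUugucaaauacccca
miR-142-3p: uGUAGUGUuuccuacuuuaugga
miR-142-5p: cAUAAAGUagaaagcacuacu
miR-126-3p: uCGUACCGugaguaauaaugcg
miR-146a-5p: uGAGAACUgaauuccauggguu
miR-155-5p: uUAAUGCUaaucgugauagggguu
miR-106b-5p: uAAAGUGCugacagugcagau
miR-93-5p: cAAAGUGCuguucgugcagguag
let-7b-5p: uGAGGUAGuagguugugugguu
let-7d-5p: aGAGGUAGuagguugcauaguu
The rows of miR-106b and miR-93, which share a seed and lie in an intron of MCM7, had 118 and 251 counts over the 9 samples. The rows of let-7b and let-7d had 143 and 115 counts.

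Most of the hairpin rows lay inside another gene. Of the 202, 176 could be placed on GRCh37, the build of the files, 161 of them by an exact match of the hairpin sequence. Counts tended to be higher for hairpins that overlapped an exon. The 56 hairpins in an exon had a median of 656 counts over the 9 samples, the 42 that crossed an exon edge a median of 718, and the 75 in an intron a median of 208. A further 2 lay in a pseudogene, 1 lay outside genes and 26 were not placed. The placed hairpins were 53 to 164 bases long with a median of 80, shorter than a library fragment of about 300 bases. By the gene taken as holder, 160 lay on its strand and 15 on the opposite strand. Where several genes overlapped a hairpin, a gene on the same strand was taken first within exons and within introns, which tilts this count.

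**Figure D1:**
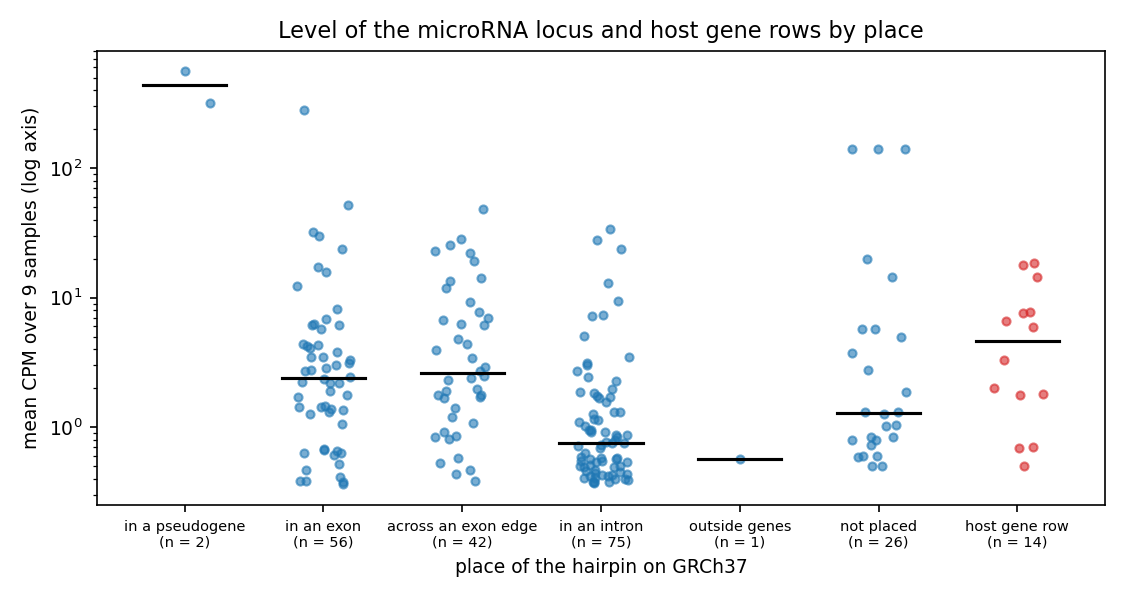
Mean CPM over the 9 samples (log axis) of the 216 rows by the place of the hairpin on GRCh37; each point is a row, the bar is the median of the place, and host gene rows are in red. The 2 rows in a pseudogene are the highest. The median of the 75 rows in an intron lies below that of the rows in an exon, and the rows of these places overlap.

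Few rows held most of the counts. The levels below are CPM, counts scaled to the library total, itself adjusted between samples by TMM, but not to length. Mean CPM was under 1 for 83 rows, 1 to 10 for 102, 10 to 100 for 25, and above 100 for 6. The 3 highest distinct rows held 51.6% of all counts on the 216, with rows of identical counts taken once. MIR4426 (chr1:192685458-192685520, plus strand, in an exon of the pseudogene RPS27AP5) was the highest. It stood at 560, 524 and 478 CPM in EV numbers 1, 13 and 25, at 659, 508 and 488 in SH2, and at 788, 552 and 479 in SH3. The sample numbered 1 was the highest in each group. A run of 60 of its 63 bases also occurs in RPS27A, a ubiquitin and ribosomal protein gene, so which of the loci its reads came from is uncertain.

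MIR3654 (chr7:132719620-132719675, minus strand) lay in a processed pseudogene, and all of its 56 bases occur in EEF1G, a subunit of a translation elongation factor. Its level was 347, 319 and 237 CPM in EV, 400, 265 and 254 in SH2, and 506, 297 and 250 in SH3. MIR1282 (chr15:44085857-44085957, minus strand) lay opposite an exon of SERF2, at 246 to 313 CPM over the 9 samples. The 3 rows MIR1244-1, MIR1244-2 and MIR1244-3 held identical counts, at 115 to 171 CPM, and all of their 85 bases occur in PTMA, the prothymosin alpha gene. They are counted here as 3 rows but hold 1 profile.

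The other rows of this rank lay within abundant genes. MIR3652 in an exon of HSP90B1, a chaperone of the endoplasmic reticulum, ranged from 46.2 to 58.2 CPM. MIR3917 at an exon edge of STMN1, which destabilises microtubules, ranged from 40.0 to 53.9 CPM, and MIR6797 in an intron of the ribosomal protein gene RPS19 from 28.2 to 46.7 CPM. MIR611 in an exon of TMEM258 ranged from 27.4 to 39.8 CPM. In all, 14 of the 171 hairpin rows with a sequence shared at least 25 bases with another gene that also has a row. That gene was not found to overlap the hairpin. Hairpins with several identical copies were not placed, so for these the gene may itself hold a copy. Rows with identical counts formed 4 sets of 9 rows, so the 216 rows held 211 distinct profiles.

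The targeted gene checked the labels. ASXL2 stood at 67.9, 67.9 and 74.7 CPM in EV numbers 1, 13 and 25, at 30.4, 36.2 and 36.2 in SH2, and at 26.9, 29.1 and 41.1 in SH3, so both shRNA groups lay below every control. The log2 difference was -1.03 (SE 0.16, adjusted p = 0.808) for SH2 and -1.12 (SE 0.16, adjusted p = 0.612) for SH3 in the edgeR fit with groups alone. With the sample number as a block the values were -1.04 (SE 0.10, adjusted p = 0.00469) and -1.13 (SE 0.10, adjusted p = 0.00407). Libraries held 27714431 to 35406063 counts with 1 transcript per symbol. The 216 rows, with rows of identical counts taken once, took 0.204 to 0.267% of a library. By library totals without the TMM adjustment, 3 counts corresponded to 0.0847 to 0.108 CPM, so these floors are only close to the scale of the other CPM. These floors cover counting error only. Samples of the same number deviated together, so the fit with the block is printed beside the fit with groups alone. MPO, CD33, SPI1, KIT and RUNX1T1 were expressed, whereas CD34 and CSF2RA were under 1 CPM in every sample, and the summed markers of T, B, erythroid, epithelial and fibroblast cells reached at most 3.34 CPM.

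The comparison of SH3 with SH2 asks whether shRNAs against the same gene differ at these loci. MIR30A was the row that differed, in the fit with the block, with more counts in SH3 than in SH2 at every number. MIR30A encodes miR-30a, a member of a broadly expressed microRNA family, and lies at chr6:72113254-72113324 on the minus strand in an intron of LINC00472. It stood at 4.98, 7.42 and 5.67 CPM in EV, at 3.38, 4.64 and 5.13 in SH2, and at 11.2, 9.39 and 14.2 in SH3. The SH3 samples did not overlap with the other 6, and at each number SH2 lay below and SH3 above EV. Means were 6.02 ± 1.26, 4.38 ± 0.90 and 11.6 ± 2.41 CPM (SD, n = 3).

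The log2 difference of MIR30A between SH3 and SH2 was 1.41 (SE 0.18, adjusted p = 0.0307) with the block and 1.40 (SE 0.23, adjusted p = 0.998) with groups alone, both by edgeR's quasi-likelihood test with Benjamini-Hochberg adjustment over 14199 genes. It was also past the threshold with DESeq2, at 1.40 without and 1.41 with the block (adjusted p = 0.000282 and 1.43e-08). The blocked call was lost when any of EV number 25, SH2 numbers 1, 13 or 25, or SH3 number 25 was left out, with adjusted p up to 0.272, while the log2 difference stayed between 1.27 and 1.65. Against EV the difference was 0.94 (SE 0.18, adjusted p = 0.0503) for SH3 and -0.46 (SE 0.19, adjusted p = 0.222) for SH2 with the block.

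The neighbourhood of MIR30A carried almost no counts. LINC00472, whose intron holds it, had 1 count over the 9 samples, and MIR30C2, a family member on the same chromosome, had 0. The stem-loop of miR-30a is also known as a scaffold in some shRNA vectors. From which sequence the reads of this row came was not tested.

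With the block, MIR30A alone was called among the 216 rows in SH3 against SH2, that is 1 row (0.463%), beside 15 of 14199 genes (0.106%). With groups alone, 0 of the 216 rows and 0 of 14199 genes (0%) passed in any of the 3 comparisons. At an unadjusted p under 0.05, the fit with groups alone held 7 rows for SH2 against EV, 13 for SH3 against EV and 4 for SH3 against SH2, which is 3.24%, 6.02% and 1.85% of the rows beside 5.37%, 5.09% and 2.06% of all genes.

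MIR590 and MIR210HG followed MIR30A in the order of p between SH3 and SH2, and neither passed. MIR590 (chr7:73605528-73605624, plus strand, in an intron of EIF4H) had 0.468, 0.544 and 0.367 CPM in EV, 0.234, 0.282 and 0.312 in SH2, and 0.613, 0.587 and 0.728 in SH3. The 3 groups did not overlap, at levels of few counts, 126 in all. The log2 difference between SH3 and SH2 was 1.20 (SE 0.32, adjusted p = 0.198) with the block, and that of EIF4H, a translation initiation factor, was 0.02 (SE 0.07).

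MIR210HG is the host gene of miR-210, a microRNA known for its induction by low oxygen. It stood at 5.34, 0.068 and 0.133 CPM in EV numbers 1, 13 and 25, at 5.73, 0.157 and 0.173 in SH2, and at 16.2, 0.124 and 1.57 in SH3. The samples numbered 1 were far above the others in every group, and outside SH3 the rest held 2 to 5 counts each. The log2 difference between SH3 and SH2 was 1.71 (SE 0.36, adjusted p = 0.124) and that between SH3 and EV 1.90 (SE 0.36, adjusted p = 0.0503) with the block. Without SH3 number 1 and with groups alone these values became -1.29 and -1.21. With the block both passed without SH3 number 1, at 2.44 (adjusted p = 0.0493) and 2.59 (adjusted p = 0.0201), and without SH3 number 13, at 1.81 (adjusted p = 0.0315) and 1.96 (adjusted p = 0.0325). The hairpin row MIR210 held 16 counts in all.

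**Figure D2:**
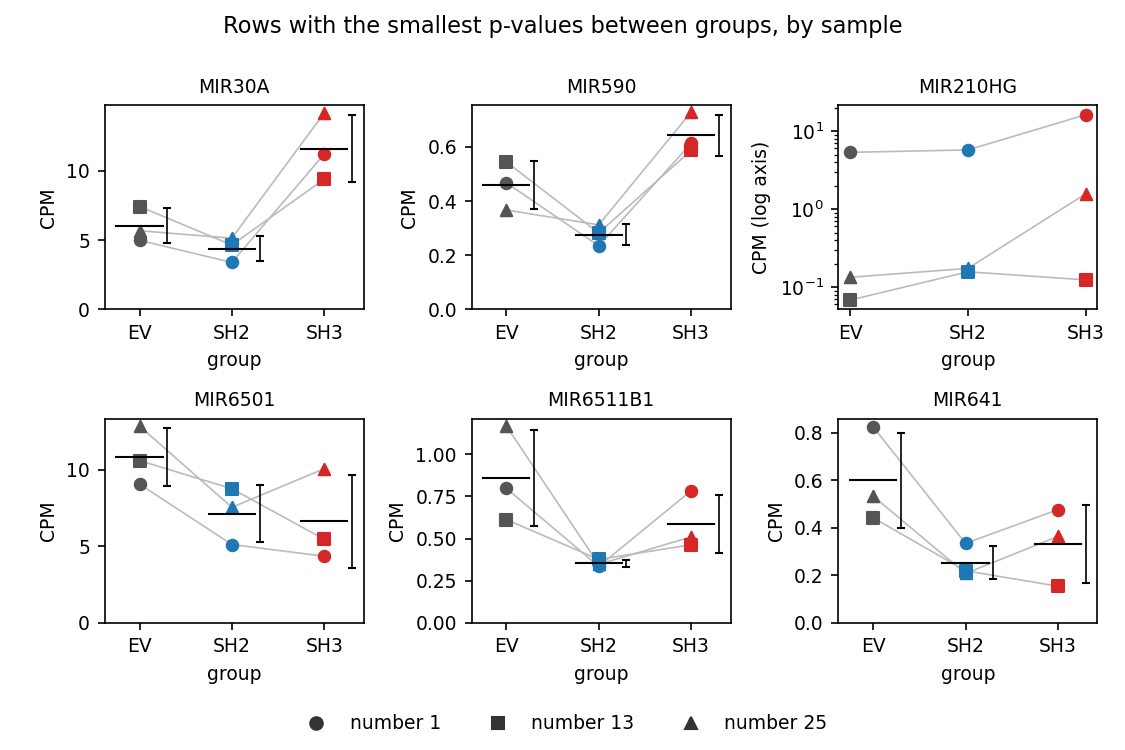
CPM by sample in EV (grey), SH2 (blue) and SH3 (red) for the rows with the smallest p between groups; shapes give the sample number, grey lines join samples of the same number, and black bars are the mean ± SD of 3 samples (not drawn for MIR210HG, whose axis is logarithmic). MIR30A reaches 9.39 to 14.2 CPM in SH3 and at most 7.42 elsewhere, and MIR210HG is high in the samples numbered 1.

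In SH2 against EV no row passed with the block, beside 40 of 14199 genes (0.282%). The 3 rows with the smallest p were all lower in SH2 at each number. MIR6511B1 stood at 0.798, 0.612 and 1.17 CPM in EV, at 0.335, 0.376 and 0.347 in SH2, and at 0.783, 0.463 and 0.510 in SH3. The SH2 samples lay below all EV and SH3 samples, at a log2 difference from EV of -1.25 (SE 0.33, adjusted p = 0.112). This hairpin was not placed.

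MIR641 (chr19:40788450-40788548, minus strand, in an intron of AKT2) stood at 0.825, 0.442 and 0.534 CPM in EV, at 0.335, 0.219 and 0.208 in SH2, and at 0.477, 0.154 and 0.364 in SH3. SH2 lay below EV without overlap, by a log2 difference of -1.22 (SE 0.33, adjusted p = 0.118). AKT2, a kinase of the insulin pathway, was at 0.01 (SE 0.06) in the same contrast.

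MIR6501 (chr21:34922968-34923034, plus strand) lies in an exon of SON, a splicing cofactor, and its counts and those of SON cannot be told apart. It stood at 9.08, 10.6 and 12.9 CPM in EV, at 5.12, 8.78 and 7.56 in SH2, and at 4.36, 5.47 and 10.1 in SH3. Both shRNA groups were lower than EV at every number, and SH3 overlapped with EV. The log2 differences with the block were -0.61 (SE 0.18, adjusted p = 0.136) for SH2 and -0.76 (SE 0.18, adjusted p = 0.0895) for SH3. SON had differences of -0.29 (SE 0.10) and -0.35 (SE 0.10) and did not pass either.

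These counts differed without SH3 number 1. Without that sample the blocked fit of SH2 against EV called 13 rows (6.02%), beside 1604 of 14291 genes (11.2%), among them MIR6511B1 at -1.26 (adjusted p = 0.0229), MIR6501 at -0.60 (adjusted p = 0.0269) and MIR641 at -1.22 (adjusted p = 0.0391).

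In SH3 against EV no row passed with the block, beside 59 of 14199 genes (0.416%). The smallest adjusted p were those of MIR30A and MIR210HG, both 0.0503. DESeq2 with the block called 3 rows here, MIR30A, MIR4751 and MIR6501, of the 90 to which it gave an adjusted p (3.33%), beside 474 of 11721 genes (4.04%). MIR4751, named after its value was seen, lies in an exon of ATF5, a stress-responsive transcription factor, and had a log2 difference of 0.73 (SE 0.18, adjusted p = 0.094) in edgeR, beside 0.71 (SE 0.17) for ATF5. Its level in SH3 was 65.2, 28.0 and 26.7 CPM at numbers 1, 13 and 25, against 17.9 to 26.5 in EV.

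By number, the rows split as follows. SH2 was below EV in all 3 numbered pairs for 50 rows (23.1%, beside 24.5% of all genes) and above for 35 (16.2%, beside 27.1%). SH3 was below EV in all 3 pairs for 51 rows (23.6%, beside 20.2%) and above for 39 (18.1%, beside 20.2%). SH3 was above SH2 in all 3 pairs for 27 rows (12.5%, beside 16.3%) and below for 36 (16.7%, beside 14.8%). SH2 and SH3 share the EV samples, so their counts against EV are not independent.

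Groups that did not overlap at all were counted in each direction. SH2 lay above EV without overlap for 13 rows (6.02%, all genes 7.15%) and below for 17 (7.87%, all genes 7.80%). SH3 lay above EV for 11 rows (5.09%, all genes 4.81%) and below for 18 (8.33%, all genes 5.28%). SH3 lay above SH2 for 8 rows (3.70%, all genes 2.23%) and below for 7 (3.24%, all genes 2.44%). The median log2 difference of the 216 rows with the block was -0.05 for SH2 and -0.08 for SH3 against EV, and -0.02 for SH3 against SH2, beside medians of 0.01, 0.01 and 0.00 over all genes. Differences above 1 in size were seen for 3 rows (1.39%) in each comparison, beside 0.592% of all genes for SH2 against EV, 0.739% for SH3 against EV and 0.655% for SH3 against SH2.

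**Figure D3:**
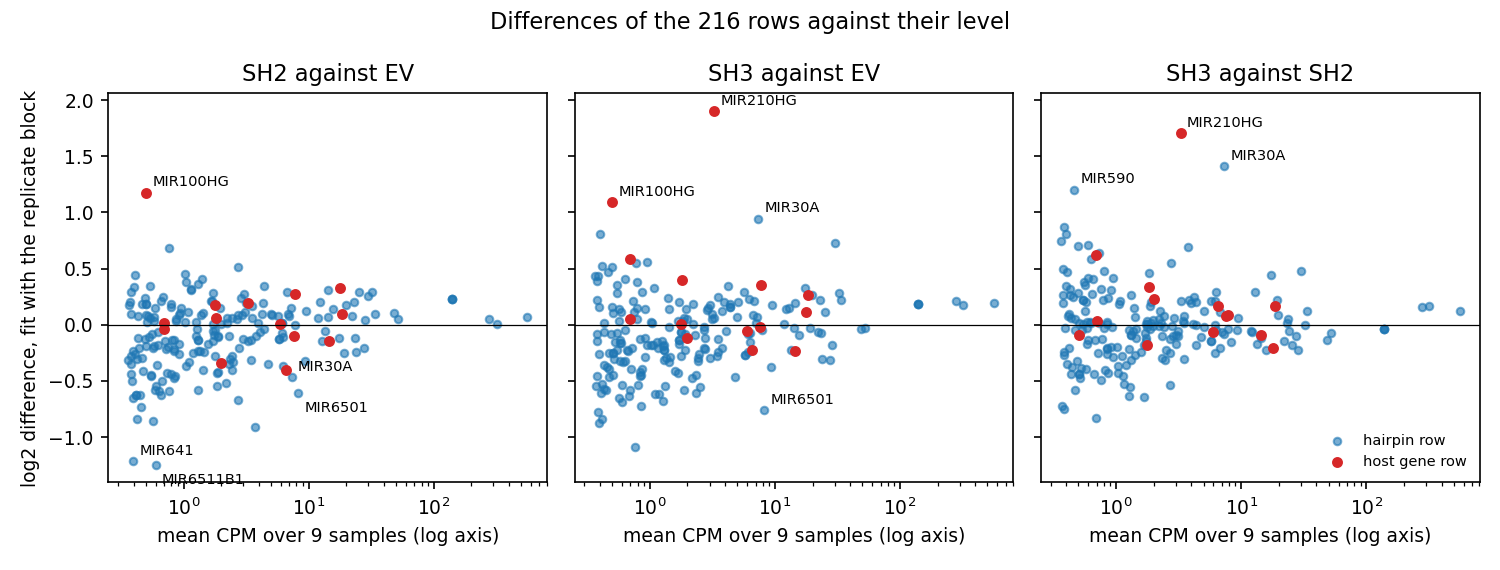
Log2 difference in the fit with the replicate block against mean CPM (log axis) for the 216 rows in the 3 comparisons; hairpin rows are blue and host gene rows red. Most rows lie near 0 at all levels, and MIR30A, MIR210HG and MIR590 stand above the others in SH3 against SH2.

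The 14 host gene rows held no call between groups in either edgeR fit, where 0% of all genes passed with groups alone and 0.106 to 0.416% with the block. Nothing is read from the absence of calls in so few rows. The highest was MIR155HG, the host gene of miR-155, a microRNA of immune and leukaemic cells, at 20.2, 16.4 and 14.0 CPM in EV, 18.4, 17.6 and 17.2 in SH2, and 32.8, 14.3 and 16.0 in SH3. SH3 number 1 alone stood high. The separate hairpin row MIR155 was at 0.525 to 1.56 CPM. MIR497HG, host of the miR-497 and miR-195 pair, was at 14.4, 17.6 and 16.2 CPM in EV and at 20.6, 21.3 and 18.3 in SH2 without overlap, and at 14.8, 19.3 and 18.2 in SH3, which overlapped with both. Its log2 difference for SH2 was 0.32 (SE 0.10, adjusted p = 0.14) with the block. The rows MIR497 and MIR195 held 0 counts.

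MIR17HG carries the miR-17-92 cluster, known as an oncogenic cluster in blood cancers. It stood at 14.8, 12.9 and 19.2 CPM in EV, 10.3, 11.6 and 22.1 in SH2, and 11.4, 12.5 and 15.8 in SH3. The sample numbered 25 was the highest in each group. Its 6 hairpins together had 44 counts.

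The next host gene rows were MIR4435-1HG at 6.15 to 11.4 CPM, MIR600HG at 6.20 to 9.49, MIR4697HG at 4.55 to 9.30, and MIRLET7BHG, host of let-7a-3 and let-7b, at 4.45 to 7.49. MIRLET7DHG, MIR646HG, MIR22HG, MIR4674HG and MIR181A2HG were between 0.345 and 2.93 CPM. Despite its name, MIRLET7DHG was annotated on the strand opposite to the hairpin MIRLET7D. MIR100HG, host of miR-100, let-7a-2 and miR-125b-1, was the lowest at 0.330, 0.170 and 0.333 CPM in EV, 0.703, 0.282 and 0.936 in SH2, and 0.885, 0.371 and 0.510 in SH3. Both shRNA groups were above EV at every number, by log2 differences of 1.18 (SE 0.36, adjusted p = 0.139) and 1.09 (SE 0.36, adjusted p = 0.161) with the block, at 136 counts in all. SH3 did not overlap with EV, and SH2 did.

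Among the hairpin rows of loci known from blood cells, MIR30A held 1988 counts over the 9 samples and MIR223 held 1573. MIR223 encodes miR-223, a microRNA of the granulocytic and monocytic lineages, and lies in an exon of a longer non-coding gene at chrX:65238712-65238821 on the plus strand. It stood at 6.71, 4.52 and 4.23 CPM in EV, 7.57, 4.48 and 4.44 in SH2, and 9.47, 4.85 and 4.99 in SH3. The 3 samples numbered 1 lay above the other 6, and the groups overlapped, with log2 differences of 0.08 (SE 0.13, adjusted p = 0.766) for SH2 and 0.29 (SE 0.13, adjusted p = 0.25) for SH3.

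MIR142 (chr17:56408593-56408679, minus strand) encodes miR-142, which is restricted to blood cells, and stood at 5.23, 1.87 and 4.40 CPM in EV, 3.18, 2.51 and 4.71 in SH2, and 4.63, 2.44 and 5.32 in SH3. Number 13 was the lowest in each group. MIR146A (chr5:159912359-159912457, plus strand), a locus that restrains inflammatory signalling, ranged from 0.104 to 1.06 CPM, with number 25 the lowest in each group. MIR126 (chr9:139565054-139565138, plus strand), in an intron of EGFL7, ranged from 0.182 to 0.908 CPM, with number 1 the highest in each group. MIR22HG ranged from 1.12 to 2.43 CPM. None of these passed between groups in either edgeR fit, where at most 0.416% of all genes passed in a comparison.

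The other loci of the same list fell below the threshold of 100 counts. MIR181A1HG had 78 counts, MIR21 had 13, MIR99AHG had 11, MIR29A had 2, MIR9-1 had 1, and MIR10A and MIR196B had 0.

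**Figure D4:**
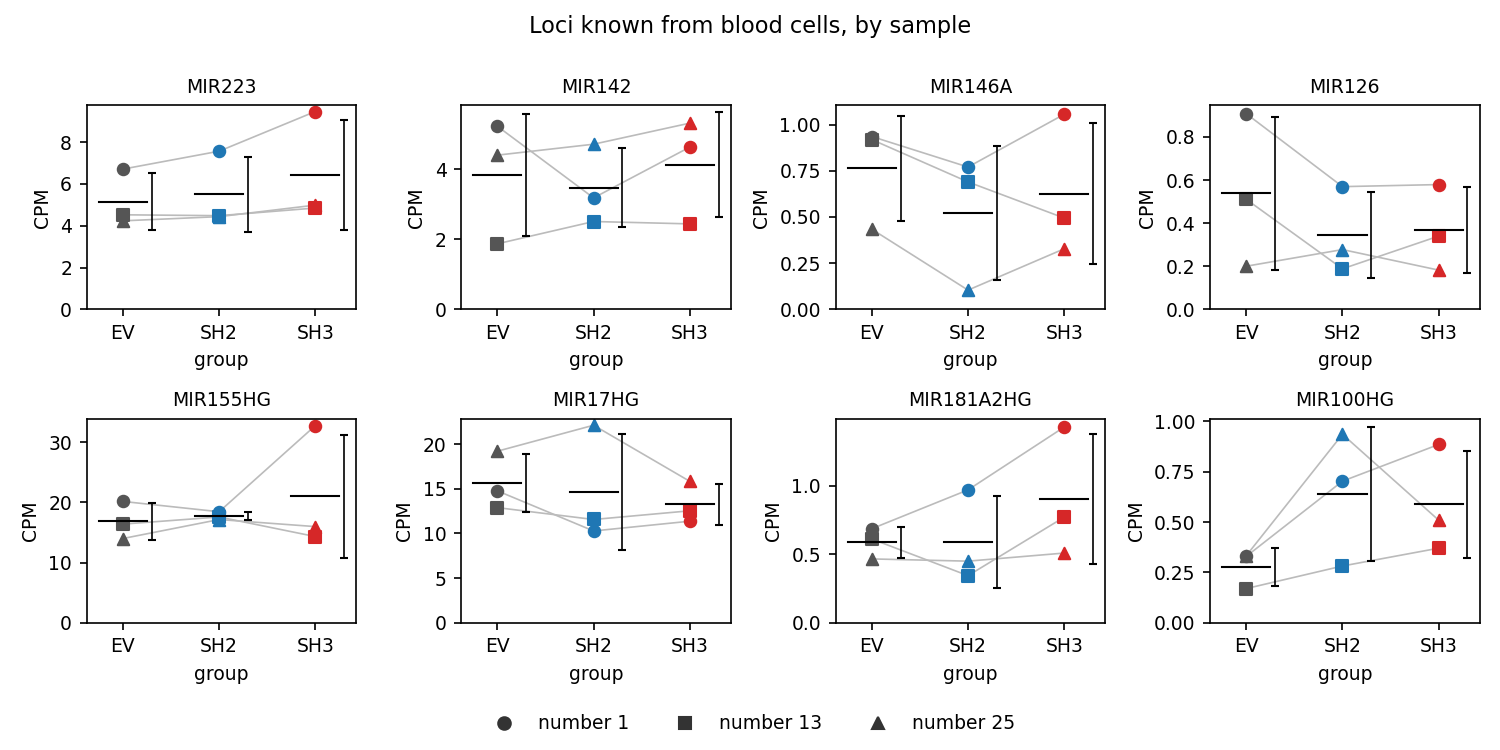
CPM by sample in EV (grey), SH2 (blue) and SH3 (red) for 8 loci known from blood cells; shapes give the sample number, grey lines join samples of the same number and black bars are the mean ± SD of 3 samples. MIR223 is higher in the 3 samples numbered 1 than in the other 6, and the groups overlap for every locus but SH3 and EV of MIR100HG.

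More rows differed by sample number than by shRNA. In the fit with groups and numbers, 50 of the 216 rows (23.1%) differed between the samples numbered 1 and the mean of numbers 13 and 25, beside 6570 of 14199 genes (46.3%). Of these, 26 rows (12.0%, beside 24.1% of all genes) were higher and 24 (11.1%, beside 22.2%) lower in number 1. The rule that chose the rows summed counts over all samples, so a row could enter through its counts in number 1. How many of the called rows did so was not counted. The 3 samples numbered 1 lay above the other 6 for 14 rows (6.48%, beside 14.4% of all genes) and below them for 16 (7.41%, beside 12.1%). What the numbers stand for is not given, and the difference between them cannot be told apart from any difference in culture, time or preparation.

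MIR210HG had the largest difference by number, a log2 difference of 5.16 (SE 0.29, adjusted p = 1.59e-05). It ranged from 5.34 to 16.2 CPM in number 1 and from 0.068 to 1.57 in the others. Its counts in number 1 were 194 in EV, 171 in SH2 and 475 in SH3, against 2 to 43 in each other sample. MIR210HG, MIR126, MIR146A and MIR181A2HG met the count threshold of the rule only with the samples numbered 1 included. The choice of these rows was therefore not independent of their difference by number. MIR126 rose by 1.30 (SE 0.30, adjusted p = 0.00573), MIR146A by 1.03 (SE 0.30, adjusted p = 0.0163), MIR181A2HG by 0.95 (SE 0.25, adjusted p = 0.012), MIR223 by 0.78 (SE 0.10, adjusted p = 0.000576) and MIR155HG by 0.56 (SE 0.15, adjusted p = 0.013), all on the log2 scale and higher in number 1. MIR17HG was lower, at -0.34 (SE 0.12, adjusted p = 0.0409). Without SH3 number 1, MIR155HG stood at 0.25 (adjusted p = 0.068), MIR181A2HG at 0.81 (adjusted p = 0.065) and MIR146A at 0.81 (adjusted p = 0.0752), and MIR17HG lost its call in 7 of 14 alternatives. MIR142, MIR22HG and MIR100HG did not pass, at 0.39, -0.48 and 0.65.

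MIR3687-1 and MIR3648-1, hairpins annotated in the ribosomal RNA precursor and singled out after their values were seen, moved together by number. MIR3687-1 stood at 6.82, 4.56 and 2.57 CPM in EV, 4.42, 1.94 and 1.35 in SH2, and 6.13, 1.88 and 4.15 in SH3, and MIR3648-1 had the same order of samples within each group. The log2 differences by number were 1.12 (SE 0.25, adjusted p = 0.00486) and 1.13 (SE 0.27, adjusted p = 0.00714).

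Some rows that share their bases with abundant messenger RNAs were set beside them, chosen after their values were seen. The hairpins of MIR1244-1 and MIR4444-1 were not placed, so whether they lie within PTMA and HNRNPA3 is not known here. By number, MIR4426 had a log2 difference of 0.40 (SE 0.08) and RPS27A of 0.38 (SE 0.08). MIR3654 had 0.62 (SE 0.10) and EEF1G 0.58 (SE 0.10), and the MIR1244-1 row had 0.25 (SE 0.07) beside 0.26 (SE 0.07) for PTMA. All 6 passed. The MIR4444-1 row, which shares its bases with HNRNPA3, had -0.32 (SE 0.13, adjusted p = 0.0767) beside -0.32 (SE 0.07, adjusted p = 0.00471) for HNRNPA3. The same reads may have been counted on both rows, so the pairs are not independent.

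Hairpin rows were set beside the genes that hold them where both were tested. By number, the median gap in size between the log2 difference of the hairpin row and that of its holder was 0.12 for 48 hairpins in an exon, 0.12 for 41 across an exon edge and 0.21 for 71 in an intron. Of 34 called hairpin rows with a tested holder, 32 had the sign of the holder and 30 of the holders were called. Over all tested pairs, called or not, the sign was shared by 38 of 48 in an exon, 35 of 41 across an exon edge and 60 of 71 in an intron. Of all genes, 46.3% were called by number. Reads of the holder may be counted on the hairpin row, so the pairs are not independent. Between groups the gap was 0.14, 0.09 and 0.18 for SH2 against EV, 0.19, 0.12 and 0.24 for SH3 against EV, and 0.08, 0.09 and 0.19 for SH3 against SH2, in the same order of places. Hairpin rows in introns had the fewest counts, and the part of counting error in their wider gap was not tested.

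The 2 called rows that went against their holder by number were MIR641 and MIR1248, the latter named after its value was seen. MIR1248, in an intron of EIF4A2, an RNA helicase of translation initiation, was at -0.71 while EIF4A2 was at 0.40, and this hairpin overlaps the small nucleolar RNA gene SNORA81. MIR641 was at 0.78 while AKT2 was at -0.09. MIR126 was at 1.30 and EGFL7, its holder, at 0.15 (adjusted p = 0.0685).

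**Figure D5:**
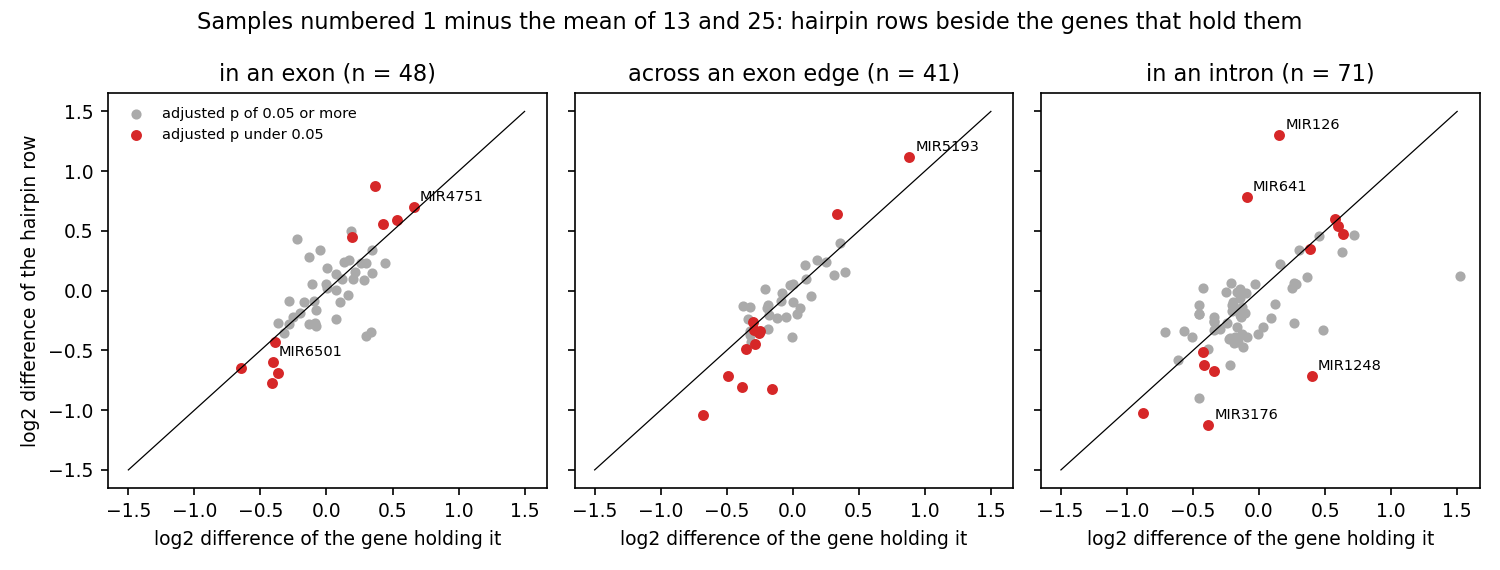
Log2 difference of samples numbered 1 minus the mean of 13 and 25 for hairpin rows (vertical axis) and for the genes that hold them (horizontal axis), by place; the line marks equal values and red points are hairpin rows with an adjusted p under 0.05. The median gap from the line is 0.12 in exons and at exon edges and 0.21 in introns. The sign of the holder is shared by 38 of 48, 35 of 41 and 60 of 71 rows in that order. MIR126, MIR641 and MIR1248 stand away from the line.

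The genes that make and use microRNAs were given from a list of 33, of which 31 were tested. In the 3 comparisons between groups, 0 of the 31 passed in either direction in either edgeR fit. Of all genes, 0% passed with groups alone. With the block 0.282% passed for SH2 against EV, 0.416% for SH3 against EV and 0.106% for SH3 against SH2. At these shares a list of 31 would hold few or no calls, so nothing is read from the 0. The median log2 difference of the list with the block was -0.07 for SH2 and -0.12 for SH3 against EV, and -0.03 for SH3 against SH2. The medians over all genes were 0.005, 0.008 and -0.0009 in the same order. AGO2, the Argonaute with slicing activity, had the smallest adjusted p of the list in SH3 against EV. It stood at 61.8, 59.9 and 86.7 CPM in EV, 35.1, 50.9 and 53.1 in SH2, and 33.4, 37.2 and 65.6 in SH3. Both shRNA groups were lower than EV at every number, by log2 differences of -0.58 (SE 0.13, adjusted p = 0.0806) and -0.65 (SE 0.13, adjusted p = 0.0537) with the block. DROSHA was at -0.03 and -0.14, DGCR8 at -0.12 and -0.30, XPO5 at 0.00 and -0.15, and DICER1 at -0.20 and -0.18.

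By number, 21 of the 31 passed, 8 higher and 13 lower in number 1, where 46.3% of all genes passed, 24.1% higher and 22.2% lower. DROSHA, DGCR8, XPO5 and AGO2 were lower, with log2 differences of -0.32, -0.37, -0.41 and -0.45, and DICER1 did not pass at -0.09. Among the 4 Argonaute genes AGO4 was higher, at 0.38 (SE 0.08, adjusted p = 0.00416).

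At the threshold of the rule, MIR1227 and MIR4697 were just inside with 101 counts each over the 9 samples. MIR4685 and MIR6893 were just outside with 99 counts each. MIR1227 ranged from 0.136 to 0.510 CPM and MIR6893 from 0.188 to 0.589, so rows on either side of the threshold overlapped.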

How the data were processed

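RNA-seq of 9 SKNO-1 samples (EV, SH2 and SH3, 3 each) was analysed from the deposited counts. Per the submitters' processing notes, the authors used hg19, STAR, featureCounts and DESeq2 (versions not given), and deposited raw whole-number counts for 48104 RefSeq transcript rows per sample. The labels' extraction text describes sorted bone marrow cells, whereas their source name is the cell line, which was used here. Each symbol was represented by its highest-total row. Counts were tested with edgeR 4.0.16 in R 4.3.3 (filterByExpr defaults, TMM, quasi-likelihood F test, Benjamini-Hochberg over 14199 genes, threshold 0.05), which kept all 216 rows, with groups alone as the main fit; CPM use TMM-scaled libraries. DESeq2 1.42.0 was an alternative. Samples of the same number deviated together (9 pairs, lowest r 0.398 and mean 0.598 across genes), so the fit with the number as a block is given beside the main one. Hairpins were placed with GRCh37, GENCODE v44lift37 and RefSeq. Scripts were tested on simulated data.

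The rows and lists were chosen with earlier results of these data known. Genes were named by rule: rows past the threshold, the 3 smallest blocked p in each comparison, the 10 highest rows, host gene rows, loci known in blood, rows at the count threshold, the genes holding these rows, DROSHA, DGCR8, XPO5, DICER1, AGO2 and ASXL2; exceptions are marked in the text, apart from sequence sharers and family members.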

Additional observations from a re-analysis of the deposited data

Results flagged for a closer look

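Rows were singled out where the shRNA groups lay on opposite sides of EV, or where a test of SH3 against SH2 passed. MIR30A met both, with a log2 difference of 1.41 between SH3 and SH2 in the fit with the replicate block. MIR590 at 1.20, MIR4737 at 0.87, MIR4750 at 0.70, MIR6861 at 0.64 and MIR3661 at -0.14 lay on opposite sides of EV at every number. The edgeR test of SH3 against SH2 with the block did not pass for them. MIR590, MIR4737, MIR4750 and MIR6861 held only 126, 106, 138 and 202 counts over the 9 samples. The share of all genes with this pattern was not counted, so nothing is read from its occurrence in these rows. Groups of 3 samples were not searched for single outlying samples.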

How the results depend on the processing

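With groups alone as the main fit, 0 rows passed in each comparison between groups. For SH2 against EV every alternative gave 0 but one, in which leaving out a single sample gave 0 to 13 rows; the 13 arose with the block and without SH3 number 1 (6.02%, beside 11.2% of all genes). For SH3 against EV, DESeq2 with the block gave 3 (all genes 4.04%), the block with no filter on low counts 4 (all genes 2.06%), the block without the samples numbered 1 gave 2 (all genes 2.42%), and leaving out a single sample gave 0 to 3 (all genes 2.58% without SH3 number 1 and 0.648% without SH3 number 13, each with 3). For SH3 against SH2, the block alone, DESeq2 with or without it, and the block with DESeq2 size factors, with at least 1 CPM in 3 samples or without the samples numbered 1 each gave 1 (all genes 0.0775% to 1.29%), the block with no filter 2 (all genes 0.814%), and leaving out a single sample 0 to 3 (all genes 1.79% with the 3). The block combined with another scaling, filter or row choice was chosen after seeing the data. With the sum of all rows of a symbol and the block, MIR30A did not pass between SH3 and SH2 (adjusted p = 0.0578).

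By number, DESeq2 gave 33 rows (15.3%, all genes 40.7%) in place of 50, and leaving out a single sample 28 to 47, with 28 (13.0%, all genes 33.7%) lacking SH3 number 1 and 47 (21.8%, all genes 40.0%) lacking SH2 number 25. The calls by number of MIR223, MIR126, MIR210HG, MIR4426 and MIR3654 passed under every alternative run, whereas MIR155HG lost its call without SH3 number 1 or 25, MIR1244-1 without SH2 number 1, SH3 number 1 or SH3 number 25, and MIR181A2HG and MIR146A with DESeq2 or without SH2 number 1 or SH3 number 1. MIR17HG lost its call with summed rows or without EV number 25, any SH2 sample, or SH3 number 1 or 13. Thresholds of 50 or 200 counts left the other counts within 1.5 times. MIR210HG turned to -1.21 (SH3 against EV) and -1.29 (SH3 against SH2) without SH3 number 1 and with groups alone, within ranges of -1.21 to 5.82 and -1.29 to 5.14 when a single sample was left out.

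ASXL2 passed against EV with the block at -1.04 (SH2) and -1.13 (SH3), in DESeq2 at -1.03 and -1.12 without and -1.04 and -1.14 with the block, and, with the block, at -1.04 and -1.14 under DESeq2 size factors, at -1.04 and -1.14 with no filter, at -1.04 and -1.14 with at least 1 CPM in 3 samples, at -1.04 and -1.14 with summed rows, and at -0.97 and -1.04 without the samples numbered 1. Leaving out a single sample gave -1.13 to -0.95 for SH2 and -1.32 to -1.01 for SH3. With the block, the SH2 call was lost without SH2 number 1 or 25. The cause of these changes was not tested. Rows under 1 CPM rest on few counts per sample, where depth limits the size of a difference that can be seen.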
